A study of Mus musculus with 4 samples.

Results

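Three-interval regions outside genes are stretches of chromatin bound by MED1 that lie away from protein-coding genes and that the deposited peak list writes as exactly 3 intervals, each beginning where the preceding one ends. They were chosen by the measured positions of the MED1 intervals themselves. Abutting intervals on chromosomes 1 to 19 and X were joined, and a region of 3 intervals was kept when its midpoint lay outside every protein-coding gene of RefSeq and more than 1 kb from every gene end. This left 3294 regions, which are 24.2% of the 13623 regions of 3 intervals and 14.6% of all 22565 regions. Of these, 678 lay over 50 kb from any protein-coding gene and 2616 lay within 50 kb of a gene end.

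MED1 chromatin immunoprecipitation followed by sequencing (ChIP-seq) was performed in RAW 264.7, a line of macrophage-like mouse cells, either exposed for 2 h to lipopolysaccharide (LPS; 2 libraries) or left untreated (2 libraries). LPS is an envelope component of Gram-negative bacteria that Toll-like receptor 4 senses. The sample labels give its dose as 10 ng/mL and the treatment protocol as 100 ng/mL, so the dose is uncertain. No genetic change is given for the cells of either group, and the line stands for macrophages only as far as a proliferating, virus-transformed line does. The single list of 53764 intervals names no library and no condition, and the score is 0 in every line, so LPS-treated and untreated cells could not be compared, read depth is unknown and no replicate error can be attached to any value. What divides a region into intervals is not stated. All values below therefore describe this list, without tests, and regions of the same locus are not replicates of each other.

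Mediator is the large complex that carries the signal from transcription factors at enhancers to RNA polymerase II at start sites, and MED1 is the subunit best known for binding nuclear receptors and for marking active enhancers. Enhancers can lie far from the gene they act on, with other genes or long empty stretches between them, and the nearest gene is therefore not always the gene they serve. Many such stretches also produce RNAs that code for no protein. Long non-coding RNAs (lncRNAs) can start from enhancers or from promoters of their own, and microRNAs are cut from hairpins in longer transcripts and repress mRNAs through bases 2 to 8 of the mature strand, the seed.

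The regions held 21 of the 1005 annotated microRNA hairpins (2.09%) in 12 regions. MED1 regions of every kind together held 130 hairpins, and 347 of the 1005 lay outside coding genes. Of the 59.7 Mb covered by all regions, the three-interval regions outside genes made up 9.45 Mb. Whether hairpins are more frequent in them than in other MED1 regions was not tested. The mature strands below, from RefSeq for GRCm38.p6, the assembly called mm10, are a selection from the 38 mature strands of the 21 hairpins. Capitals mark the seed.
miR-221-3p: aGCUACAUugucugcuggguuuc
miR-222-3p: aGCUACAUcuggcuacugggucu
miR-17-5p: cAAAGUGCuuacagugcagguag
miR-20a-5p: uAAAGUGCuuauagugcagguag
miR-19a-3p: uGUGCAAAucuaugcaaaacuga
miR-19b-3p: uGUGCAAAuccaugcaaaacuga
miR-223-3p: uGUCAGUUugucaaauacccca
miR-22-3p: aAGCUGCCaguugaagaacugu
miR-23a-3p: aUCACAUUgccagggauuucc
miR-27a-3p: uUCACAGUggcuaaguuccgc
let-7i-5p: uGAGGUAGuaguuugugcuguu

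The hairpins of miR-221 and miR-222, repressors of the cell-cycle inhibitor p27, lay in the first interval of the widest of all these regions, chrX:19142683-19177434, which measured 34752 bp and had its midpoint 319 kb from the nearest coding gene, Tex13c3. Both 3p strands carry the seed GCUACAU. The region chr14:115042206-115044582 held all 6 hairpins of the Mir17 to Mir92-1 cluster, a proliferation-linked polycistron. In it miR-17-5p and miR-20a-5p share the seed AAAGUGC, and miR-19a-3p and miR-19b-3p share GUGCAAA. The nearest coding gene, Gpc5, was 48.8 kb away, the first interval was 1 bp long, the hairpin Mir17 lay in the middle interval of 1597 bp, and the other 5 lay in the last interval of 779 bp. The mature strands of all 21 hairpins numbered 38 and had 35 distinct seeds, so these 3 shared seeds are the only repeats among them.

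Mir223, which encodes the microRNA most typical of myeloid cells, lay in the last interval of chrX:96238892-96242979, 6.27 kb from Vsig4, a macrophage complement receptor. Mir22 lay in the last interval of chr11:75457720-75463858, a region of 6139 bp whose middle interval of 5711 bp held the start of the host transcript Mir22hg. The hairpins Mir23a, Mir27a, Mir24-2 and the opposite-strand Mir3074-2 lay together in the middle interval of chr8:84206856-84212648, whose midpoint was 1.19 kb from Zswim4. The hairpin of let-7i, a member of the let-7 family that promotes differentiation, lay in the middle interval of chr10:122982023-122985788. A further hairpin, Mir7671, lay in the region 6.97 kb upstream of Irf1, an interferon-response transcription factor. The widths of these regions and the presence of a hairpin are 2 separate facts of position. Whether the regions act on the hairpins was not tested.

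The start sites of 4 transcripts within such regions are shown next, each with 250 bases before and 50 bases after the start, read on the strand of the gene from RefSeq promoters for GRCm38.p6. Morrbid and Ctsd lie in 2 of the widest regions, Ptgs2os2 lies beside an LPS-induced gene and Lncpint lies in a long stretch without coding genes. Among the windows read for display, these 4 were also the ones with a motif match. The windows of Junb, Cebpa, Socs3, Id2, Mir17hg and Mir22hg, also within such regions, held none of the motifs searched and are not shown. The 4 therefore do not stand for start sites in these regions at large. Capitals mark the motifs found on either strand: GAGGAAGT (ETS, PU.1 type) and TGANTCA (AP-1) in Morrbid, TTGCNNAA (C/EBP) and GAAANNGAA (interferon regulatory factors, here on the opposite strand) in Ptgs2os2, and CACGTG (E-box) in Lncpint and, in 2 places, in Ctsd. None of these matches overlaps another.
Morrbid: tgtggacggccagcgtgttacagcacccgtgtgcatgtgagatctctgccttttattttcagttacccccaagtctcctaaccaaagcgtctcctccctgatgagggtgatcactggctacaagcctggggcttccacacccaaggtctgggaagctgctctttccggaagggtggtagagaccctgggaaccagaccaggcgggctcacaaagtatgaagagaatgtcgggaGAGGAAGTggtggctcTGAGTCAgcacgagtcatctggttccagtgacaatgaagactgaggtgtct
Ptgs2os2: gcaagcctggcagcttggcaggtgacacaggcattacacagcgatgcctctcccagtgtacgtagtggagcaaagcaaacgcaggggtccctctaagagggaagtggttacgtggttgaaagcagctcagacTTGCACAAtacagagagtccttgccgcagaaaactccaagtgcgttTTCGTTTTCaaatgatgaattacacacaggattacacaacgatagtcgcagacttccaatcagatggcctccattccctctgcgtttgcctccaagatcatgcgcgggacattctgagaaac
Lncpint: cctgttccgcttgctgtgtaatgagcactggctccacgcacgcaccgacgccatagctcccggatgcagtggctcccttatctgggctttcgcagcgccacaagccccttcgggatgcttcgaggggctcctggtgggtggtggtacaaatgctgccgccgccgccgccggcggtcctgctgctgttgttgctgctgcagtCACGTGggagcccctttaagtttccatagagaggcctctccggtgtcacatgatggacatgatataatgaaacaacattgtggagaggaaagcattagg
Ctsd: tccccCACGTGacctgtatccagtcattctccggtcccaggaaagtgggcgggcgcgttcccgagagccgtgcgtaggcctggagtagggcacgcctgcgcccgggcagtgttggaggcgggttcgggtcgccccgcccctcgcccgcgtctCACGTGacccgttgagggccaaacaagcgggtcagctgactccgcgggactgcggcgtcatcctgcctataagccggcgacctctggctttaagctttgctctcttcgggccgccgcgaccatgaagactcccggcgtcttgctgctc

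Morrbid is a lncRNA that lengthens the life of short-lived myeloid cells by repressing the neighbouring pro-apoptotic gene Bcl2l11. Its printed window, chr2:128429302-128429601 on the minus strand, lay in the middle interval of chr2:128418829-128438426, the fifth widest region with 19598 bp, 163 kb from the nearest coding gene Spdye4c. The intervals of that region measured 8349, 3198 and 8051 bp, so its flanks were each longer than its middle. Ptgs2os2 is transcribed near Ptgs2, which encodes the inducible cyclooxygenase. Its window, chr1:150164899-150165198 on the minus strand, lay in the middle interval of chr1:150163120-150168179, 57.4 kb from Ptgs2. Lncpint, a p53-induced lncRNA, had its window at chr6:31218425-31218724 on the minus strand, in a region of 6804 bp whose nearest coding gene, Mkln1, was 180 kb away. Ctsd encodes the lysosomal protease cathepsin D, and its window, chr7:142387778-142388077 on the minus strand, lay in the first interval of a region of 19234 bp whose midpoint was 3.46 kb from the gene.

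Start sites of lncRNAs lay in 268 of the 3294 regions (8.14%), against 91 of the 2890 single-interval regions outside genes (3.15%). Counted by gene, 283 of 9520 lncRNA genes (2.97%) had a start in one of these regions. Coding starts, which the choice by midpoint does not bar, lay in 75 of the regions (2.28%), against 0.242% of single-interval regions outside genes. Regions with a lncRNA start had a median width of 2730.5 bp and those with a coding start 4999 bp, against 2176.5 bp for regions with neither. The wider a region is, the more start sites it can contain, and the part of width in these shares was not tested. Start sites of genes missing from the RefSeq promoters used were not counted, so the shares of regions can be too low.

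The start sites sat mostly in the middle interval. Of 321 lncRNA start sites in the regions, 283 (88.2%) lay in the middle interval, 13 in the first and 25 in the last, and of 86 coding start sites 73 (84.9%) lay in the middle. The middle interval made up a median of 76.1% of a region's width. Among the lncRNAs with a start in the middle interval were Dleu2, host of the Mir15a and Mir16-1 hairpins, Ftx from the X-inactivation centre, Chaserr beside the chromatin remodeller gene Chd2, and the small nucleolar RNA hosts Snhg1, Snhg3, Snhg5, Snhg7, Snhg12, Snhg16 and Snhg20. Lexis1, a lncRNA of cholesterol metabolism, started in the middle of a region of 1648 bp that lay 58.1 kb from Abca1, the cholesterol efflux transporter. Coding starts in the regions included those of Junb, Cebpa, Socs3, Id2, Fcgr2b, Ifitm3 and Ifitm6 in the middle interval and that of Lgmn, the lysosomal protease legumain, in the first interval of a region of 11693 bp. These transcripts were picked after their positions were seen.

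The promoter windows of the lncRNAs were searched on both strands for 8 short motifs, each counted on its own also where matches overlap. GAGGAAGT occurred in 8.41% of the 321 windows in the regions, in 7.0% of the 100 lncRNA windows in single-interval regions outside genes and in 3.34% of all 11574 lncRNA windows. CACGTG occurred in 10.6%, 10.0% and 5.90% of the same sets, and the median GC content of the 3 sets was 51.7%, 49.7% and 48.3%. TGANTCA occurred in 10.9% of the windows in the regions, 23.0% of those in single-interval regions and 9.31% of all lncRNA windows. The ETS-type and E-box letters were thus about as frequent in both MED1-bound sets and less frequent among all lncRNA windows, while the AP-1 letters were most frequent in the single-interval set. The part of base composition in these shares was not tested.

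The other motifs differed less or were rare. GAAANNGAA occurred in 11.5% of the windows in the regions, 13.0% of those in single-interval regions and 9.32% of all lncRNA windows. TTGCNNAA occurred in 14.3%, 16% and 11.9%, and TGTGGTTT (RUNX) in 1.87%, 1.0% and 2.11%. GGGAATTTC (NF-kB) occurred in 2 windows of the regions and AGGGGGCGC (core of the CTCF site) in 2 (0.623% each), against 0.311% and 0.415% of all lncRNA windows. In single-interval regions each occurred in 1 window (1.0%). In the 86 windows of coding starts within the regions, CACGTG occurred in 11 (12.8%), against 7.91% of all 21045 coding windows, TGANTCA in 4.65% against 7.04% and TTGCNNAA in 8.14% against 10.3%, while GGGAATTTC and TGTGGTTT occurred in 0. AGGGGGCGC occurred in 3 of the 86 (3.49%), against 1.72% of all coding windows. GAGGAAGT, more frequent in the lncRNA windows of the regions, occurred in 3 of the 86 (3.49%) against 3.15%, and GAAANNGAA in 7 (8.14%) against 8.10%. The median GC content of these coding windows was 63.2%, against 56.7% for all. Such matches are descriptions of the letters in these windows. The sequences of the regions themselves were not used here.

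The regions had a median width of 2251.5 bp, with quartiles of 1563.25 and 3403 bp, and ranged from 273 to 34752 bp, covering 9.45 Mb in all. By median they were 2251.5 bp wide against 2500 bp for three-interval regions inside genes, 2089.5 bp for those at gene ends and 1299.5 bp for single-interval regions outside genes. A width over 10 kb was reached by 53 of them (1.61%), against 2.90% of those inside genes, 0.426% of those at gene ends and 0.277% of single-interval regions outside genes. They thus stood between the three-interval regions of gene bodies and those of gene ends, with quartiles that overlap both.

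Within a region the middle interval was usually the longest. It had a median of 1545.5 bp (quartiles 1070.75 and 2314 bp), while the first had a median of 196 bp (74 and 467 bp) and the last 206.5 bp (76 and 479.75 bp). The middle was the longest in 2973 regions (90.3%), the first in 140 and the last in 181. In 1608 regions the first interval was longer than the last, in 1680 it was shorter and in 6 they were equal. A flank under 10 bp occurred in 244 regions (7.41%). In three-interval regions at gene ends the middle was the longest in 95.9% and inside genes in 89.5%.

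**Figure D1:**
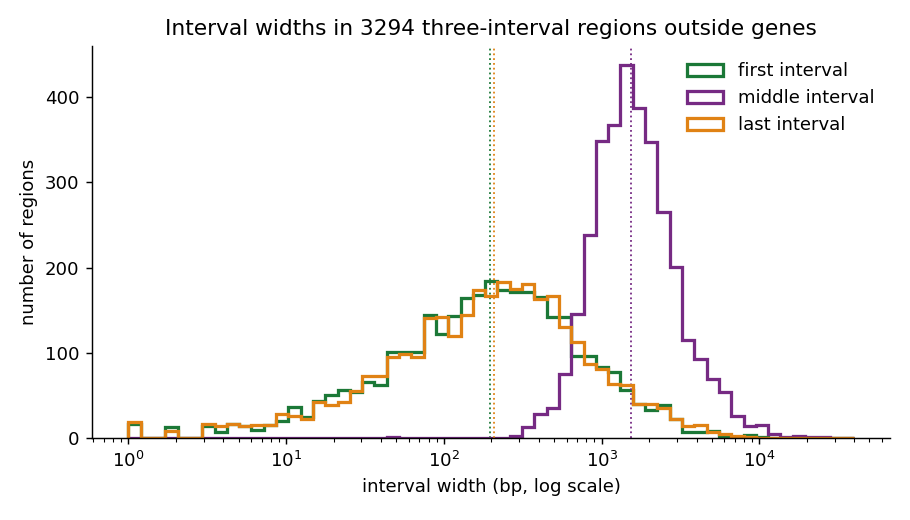
Widths in bp (log scale) of the first, middle and last interval of the 3294 regions, as numbers of regions per width class, with dotted lines at the medians. The first and last intervals have nearly the same spread, with medians of 196 and 206.5 bp, and the middle interval stands apart at 1545.5 bp.

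After the Mir221 and Mir222 region, the widest were chr16:25038338-25068293 (29956 bp; 60.7 kb from Lpp, which encodes a focal adhesion protein), chr2:116968179-116995597 (27419 bp; 89.4 kb from Tmco5) and chr2:46356099-46377205 (21107 bp; 1249 kb from Zeb2, a zinc-finger repressor that maintains macrophage identity). The 10 widest also included chr8:84973668-84991263 (17596 bp; 3.72 kb from Junb, an AP-1 subunit) and chr2:167751286-167767629 (16344 bp; 69.0 kb from Cebpb, a C/EBP factor induced in activated macrophages). Besides the regions with Morrbid and Ctsd, the remaining 2 were nearest to Irf2bpl (17117 bp, 5.57 kb away) and to Metrnl, which encodes a secreted immune-modulating protein (16451 bp, 28.5 kb away). All these distances run from midpoints, and the regions near Junb, Ctsd and Irf2bpl reached over the 5′ ends of those genes. Of these 10 regions 6 lay over 50 kb from any gene.

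The intervals of these wide regions were not alike. The region near Lpp had a first interval of 27 bp and a middle of 27425 bp, and the one downstream of Cebpb had 29 bp and 15841 bp. The Mir221 and Mir222 region had 8972, 21280 and 4500 bp. The middle interval was thus the longest in these 3 regions, while at Morrbid it was the shortest.

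Most regions lay at moderate distance from a gene, with a long tail. The median distance from midpoint to nearest gene end was 15.4 kb (quartiles 5.93 and 40.1 kb), against 17.1 kb (6.50 and 45.6 kb) for single-interval regions outside genes. The 10 to 25 kb class held most, 845 regions (25.7%), and 327 lay over 100 kb away. The distance to the nearest coding start among the RefSeq promoters used was longer, with a median of 31.6 kb. Those promoters lack some genes, among them the gene nearest to 694 regions, so this median can be too long. Where the strand of the nearest gene was known, its nearer end was the start in 1576 of 2600 regions (60.6%), against 59.6% for single-interval regions outside genes, 65.3% for three-interval regions inside genes and 95.3% for those at gene ends.

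Just beyond the 1 kb limit lay chr1:180847523-180852777, 1001 bp from Sde2, while chr1:64689156-64690929, 998.5 bp from Ccnyl1, was left out. At the 50 kb limit, chr16:78489773-78490889 lay 50.005 kb from D16Ertd472e and counted as far, and chr8:125619193-125620599 lay 49.922 kb from Map10 and did not. The midpoint rule also leaves regions that touch genes: 294 of the 3294 (8.93%) overlapped a protein-coding gene or its 1 kb flank. "Outside genes" therefore holds for the midpoint of each region and for protein-coding genes only, since 756 midpoints (23.0%) lay in an annotated non-coding gene, 713 of them in a lncRNA gene.

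The 678 regions over 50 kb from any gene were slightly wider and less crowded than the 2616 nearer ones. Their median width was 2442 bp against 2222 bp, and 3.24% were over 10 kb wide against 1.19%. Their middle interval took a median of 73.1% of the width against 76.7%, with flanks of 259.5 and 273 bp by median against 186.5 and 191 bp. A midpoint in a non-coding gene occurred in 194 (28.6%) of the far regions, against 21.5% of the nearer ones, and a lncRNA start in 8.41% against 8.07%. Counting non-coding genes as genes leaves 114 regions over 50 kb from any gene in place of 678.

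Neighbours were common. Another region of any kind lay within just over 12 kb, edge to edge, of 2344 of the 3294 regions (71.2%), against 66.1% of three-interval regions inside genes, 47.9% of those at gene ends and 63.1% of single-interval regions outside genes. The median gap to the nearest region was 5.32 kb. Among the 2344, the nearest neighbour was another of these regions in 940 (40.1%), a region of 1 interval in 759 (32.4%) and a region of 5 or more intervals in 127 (5.42%). It lay at a gene end in 436 (18.6%) and inside a gene in 246 (10.5%), so that most near neighbours were themselves outside genes. The far regions had such a neighbour in 56.9% and those within 50 kb of a gene in 74.8%.

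When regions up to that distance apart were stitched together, 950 of the 3294 stood alone (28.8%), 750 were in pairs (22.8%), 949 were in groups of 3 or 4 (28.8%) and 645 in groups of 5 or more (19.6%). The group with the most of them lay between Tmco5 and Spred1, a brake on RAS signalling, with 9 among 14 regions over 130 kb. A group of 9 regions between Arf6, which encodes a small GTPase of membrane traffic, and Gm46353 had 8 of them, and a group between Lrrc74a and Irf2bpl consisted of 7 regions that were all of this kind. The group around Fos had 6 of 12, and the group around Cx3cr1, the fractalkine receptor gene of monocytes and macrophages, had 5 of 11.

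A further group stood apart in shape. At the very start of the chromosome 9 assembly, chr9:3000517-3029925, 6 of 12 regions were of this kind, and they measured between 389 and 1958 bp with 4.62 kb covered in all. Their nearest gene, Alkbh8, was between 306 and 335 kb away. The flanks of these 6 measured 1 to 71 bp. They count among the regions over 50 kb from any gene. No control values or mapping filter are known for the list, and whether these 6 mark MED1 binding was not tested.

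Single loci collected many regions. The 3294 regions had 2186 different nearest genes; 1558 of these genes (71.3%) were nearest to 1 region, 381 to 2 and 52 to 5 or more. Cited2, which encodes a CBP and p300 binding co-regulator that restrains inflammatory and hypoxic gene expression, was nearest to 14 regions, all upstream, between 67.0 and 1226 kb away. Together they covered 82.2 kb, and the widest, chr10:16988577-17000642, measured 12066 bp. No coding gene lies between the most distant of them and Cited2, and the next gene on the far side is Nmbr.

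Klf6, a zinc-finger factor induced early by LPS, was nearest to 13 regions. Of these, 10 were upstream, between 17.1 and 516 kb from the 5′ end, and 3 downstream, and they covered 55.9 kb. Zeb2 was nearest to 10 regions covering 78.6 kb, 9 of them upstream and the most distant at 1326 kb. The regions upstream of Zeb2 formed separate sets: 4 lay between 78.5 and 160 kb, 2 at 576 and 710 kb, and 3 between 1124 and 1326 kb, including the widest at 21107 bp. The 10 regions of Zeb2 had a median width of 6.95 kb, above the upper quartile of 3403 bp of all 3294.

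Cebpb was nearest to 9 regions covering 44.8 kb, 1 of them 1.26 kb upstream and 8 spread downstream to 116 kb from the 5′ end. The widest pair lay 70.5 and 85.3 kb downstream and measured 16344 and 10214 bp. Myc, the growth-promoting transcription factor, was nearest to 9 regions between 48.3 and 411 kb from the gene, of which the widest, chr15:62248557-62255171, had flanks of 2585 and 2483 bp around a middle of 1547 bp. Atp2b1, encoding a calcium pump of the plasma membrane, was nearest to 9, Btg1, encoding an antiproliferative protein, to 7, and Gclc, encoding the catalytic subunit of the rate-limiting enzyme of glutathione synthesis, to 7. The 7 around Gclc were small by comparison, 3144 bp at most, and all lay within 40.7 kb of the gene.

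Because a gap between genes has a gene on either side, the far regions were also counted by gap. The 678 lay in 335 gaps, of which 190 held 1 such region and 29 held 5 or more, with 201 regions together (29.6%). The gap between Eea1, whose protein tethers early endosomes, and Btg1 held 15 over 372 kb, covering 62.2 kb. Eea1 was the nearest gene of 11 of these, all between 86.8 and 249 kb downstream of it, and Btg1 of the other 4, between 115 and 266 kb upstream. Splitting by nearest gene thus divides 1 continuous series of regions between these 2 genes.

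The gap between Nmbr and Cited2 held 14 over 1164 kb, that between Zeb2 and Acvr2a 13 over 3308 kb (83.5 kb covered), that between Akr1e1 and Klf6 10 over 1145 kb and that between Myc and Gsdmc 8 over 347 kb. A gap of 277 kb between Smim20 and Rbpj, the DNA-binding factor of Notch signalling, held 7 with a median width of 5849 bp. Between Klf14 and Mkln1 lay 6, among them the region with the start of Lncpint, and between Bcl2l11 and Spdye4c lay 5, among them the region with the start of Morrbid. Short stretches could hold as many: the 50.2 kb from Arf6 towards Gm46353 held 7, all the regions of any kind in that span.

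The most isolated regions were of mixed width. The farthest from any gene, chr14:82064954-82065850, was 897 bp wide and lay 2042 kb from Olfm4, with the nearest other region 2477 kb away. The next 6 by distance were the 3 farthest of Zeb2 and the 3 farthest of Cited2, between 1124 and 1326 kb from those genes and between 5605 and 21107 bp wide. Then came chr1:148901408-148906475, 926 kb from Pla2g4a, which encodes the phospholipase that releases arachidonic acid, and chr4:16905841-16909224, 744 kb from Ripk2, the kinase of NOD signalling. The region chr12:114289019-114291350, 744 kb from Adam6a, lay within the immunoglobulin heavy-chain locus, whose V segments are not classed as protein-coding genes.

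The number of regions per chromosome ran from 304 on chromosome 2 to 51 on X. Per 10 Mb outside genes, there were 36.0 on chromosome 11, 32.6 on chromosome 19 and 31.2 on chromosome 2, against 15.0 on chromosome 14 and 4.08 on X. The share over 50 kb from any gene was 38.4% on chromosome 10, which carries Cited2, Eea1, Btg1 and Atp2b1, 33.8% on chromosome 13 and 33.3% on chromosome 15, and was 7.59% on chromosome 11 and 7.38% on chromosome 17. The copy number of each chromosome in the line was not used here.

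Which kinds of genes had these regions nearby was read from 13 gene lists, by counting genes with at least 1 region midpoint within 50 kb of either end. Among all 21631 protein-coding genes, 4377 had such a region (20.2%), with a median of 0 and a mean of 0.299 per gene. Neighbouring genes share regions, and the background was not matched for gene density, so the shares below describe the lists and nothing more.

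Genes of the primary LPS response stood highest, with 32 of 44 (72.7%), a median of 1 and a mean of 1.45 regions. Fosb had 5 regions, 8.96 kb downstream and 6.61, 9.84, 22.8 and 25.5 kb upstream of its 5′ end. Fos, which like Fosb encodes an AP-1 subunit, also had 5, at 36.8, 29.0 and 18.2 kb upstream and 14.5 and 23.3 kb downstream. Btg2, another antiproliferative factor, had 4, and so did Irf1, with 2 on each side between 34.7 kb upstream and 35.8 kb downstream. Not every well-known target did: the closest such region was 58.5 kb from Tnf, 54.4 kb from Jun and 55.9 kb from Nfkbiz, examples picked with their values in view.

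Genes of the secondary and interferon response had a lower share, 13 of 31 (41.9%). Ch25h, which encodes cholesterol 25-hydroxylase, had 3 regions, the closest 1.43 kb away, and Socs3, an inhibitor of cytokine signalling, had 2, the closer of them 14608 bp wide and holding the gene's start. Cxcl9, a chemokine gene induced by interferon gamma, had 2 (closest 2.80 kb) and Ifnb1, the gene of interferon beta, had 2 (closest 6.62 kb). Il6 and Il12b had none within 50 kb, with the closest 930 and 732 kb away, and the closest to Nos2 was 116 kb away; these examples too were picked with their values in view. The list's median was 0, as it is among all genes.

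Of the negative regulators of inflammation, 14 of 27 (51.9%) had a region. Il10ra, the interleukin 10 receptor gene, had 5, of which 3 lay 2.75, 5.94 and 12.1 kb from it and the other 2 were closer to Tmprss13. Dusp6, a phosphatase of ERK kinases, had 3, and Zc3h12a, whose product degrades inflammatory mRNAs, had 2, the closest at 4.01 kb. Socs3 stands on this list as well.

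The macrophage lists had regions near 15 of 30 lineage factors (50%) and 21 of 42 surface and effector genes (50%). T cell markers reached 40%, so these shares are no test of the identity of the cells. Cebpa had 5, from 38.1 kb upstream to 44.8 kb downstream, the closest 1.01 kb upstream and over its start. Cebpb had 4 within 50 kb and Ets2 had 3. Irf8, which drives monocyte and macrophage development, had 3, at 20.1 and 16.1 kb upstream and 56.6 kb downstream of its 5′ end. Several defining genes had none, among them Spi1, the gene of PU.1, with the closest 409 kb away, Csf1r at 317 kb and Lyz2 at 131 kb; regions of other kinds are not counted here.

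Among the surface and effector genes, Fcgr1, the high-affinity IgG receptor gene, had 6 regions, of which 3 were nearest to the histone genes H3c15, H2ac19 and H4c14 beside it. Cx3cr1 had 5, all downstream and between 22.6 and 66.3 kb from its 5′ end, and 3 of these were nearer to Xirp1. Lgals3, which encodes galectin-3, had 4, all upstream. Tlr2, the receptor for bacterial lipoproteins, had 4, of which 3 were upstream and the widest measured 2402 bp. Counts within 50 kb therefore include regions that are closer to another gene.

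The lists for other cell types gave a mixed picture. Regions lay near 2 of 24 neuronal markers (8.33%; Syn2 and Gad2 with 2 each) and 1 of 20 hepatocyte markers (5%), which was Hnf4a with 4. They lay near 4 of 20 skeletal muscle markers (20%; Tnni2, Ckm, Cacna1s and Mylpf with 1 each), which is at the background of 20.2%. For B cell markers the share was 5 of 18 (27.8%), with 2 near Fcrla and 1 near each of Blnk, Ms4a1 and Fcer2a. For T cell markers it was 8 of 20 (40%), with 2 near Cd4 and 1 near each of Gata3 and Cd3e, a share close to that of the interferon list. The region near Cd3e also counted for Cd3d and Cd3g, and the primary LPS list likewise counted 1 region for both Ccl3 and Ccl4. The windows around these markers also take in other genes.

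The series was made for work on acetyl-CoA made by dehydrogenases that bind Mediator. Genes of 2-ketoacid dehydrogenases and of acetyl-CoA supply had a region in 9 of 21 cases (42.9%), with 1 each. Slc25a1, the mitochondrial citrate carrier gene, had its region 3.37 kb away, Ogdh, which encodes the first subunit of oxoglutarate dehydrogenase, 6.66 kb, Cs, the citrate synthase gene, 11.2 kb, and Pdp2, a phosphatase gene of pyruvate dehydrogenase, 20.5 kb. Mediator subunit genes had one in 11 of 33 cases (33.3%), with 4 near Med11, 3 near Cdk19, 3 near Med21 and 2 near Med18. Cytosolic ribosomal protein genes, active in every cell, had one in 15 of 58 cases (25.9%), with 3 near Rpl26 and 2 near Rps18. With a window of 10 kb in place of 50 kb, the shares were 9.52% for the dehydrogenase list, 9.09% for Mediator and 10.3% for ribosomal proteins, against 6.67% of all genes, and 36.4% for the primary LPS response.

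Apart from Fcgr1, the genes named next for the most regions within 50 kb were on none of these lists. She and Gclc had 7 each, and Rbm47, Ube2q1, Themis2, Rpa2, Nrros and Fcgr1 were among those with 6. Ube2q1 and She lie in the same stretch of chromosome 3, and Themis2 and Rpa2 in the same stretch of chromosome 4, so these pairs share regions. Themis2, a signalling adaptor of myeloid and B cells, had its closest region 1.21 kb away, and Nrros, which holds latent TGF-beta on the surface of myeloid cells, 5.19 kb away.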

How the data were processed

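MED1 ChIP-seq of RAW 264.7 cells (2 libraries after LPS for 2 h, 2 untreated) was represented by a single interval list. Per the submitters' processing notes, Bowtie, SAMtools, MACS2 2.2.6 and mm10 were used. Of calling settings, control and pooling, the sources used here give nothing. The score that the authors deposited is 0 for all 53764 intervals and holds no measurement. The list has no counts, so depth and precision per library are unknown, and LPS-treated and untreated cells were not compared.

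Intervals were joined where a start equalled the preceding end (31182 cases on chromosomes 1 to 19 and X). Distances run from region midpoints to ends of 21631 protein-coding genes, and start sites, strands, promoter windows and microRNAs come from RefSeq for GRCm38.p6. Strand is unknown for genes missing from the promoter table, and their start sites were not counted. Coordinates are 1-based. The joining of intervals and the sorting of regions by place were tested on simulated data, and the other counts were not.

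The regions, the 13 gene lists (391 genes, 388 found; Cxcl11, Mx1 and Mx2 were not matched) and the rule for named genes were chosen with earlier results of these data known. The rule took up to 4 genes of each list with most regions within 50 kb, the genes nearest to the 10 widest and the 10 farthest regions, the 10 genes nearest to most regions, genes flanking the longest runs and regions at the limits; other genes, and 7 of the 10 regions whose sequences are shown, were chosen after their values were seen. Some genes that the rule selects are left unnamed. No tests were made. Alternatives were a joining gap of 100 bp, other distance limits and windows, whole regions in place of midpoints, non-coding genes counted as genes, wider regions alone and other definitions of a neighbour; list windows of 10 and 100 kb were added after seeing the data. The software was matplotlib 3.10.9, scipy 1.17.1, pandas 2.3.3 and numpy 2.4.6 under Python 3.11.15.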

Additional observations from a re-analysis of the deposited data

Results flagged for a closer look

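Outside the chromosomes described above, the list holds 4 intervals on the mitochondrial genome. It also holds 13 intervals on chromosome Y. No control values go with either.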

How the results depend on the processing

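The number of regions outside genes stayed within 1.5 times of 3294 (3291 with a joining gap of 100 bp, 2977 beyond 2.5 kb from gene ends, 3000 for whole regions and 2333 with non-coding genes counted). The number of far regions was 678 at 50 kb, 1202 with a limit of 25 kb, 327 with 100 kb and 114 with non-coding genes counted. The median width was 2251.5 bp, 2176.5 bp for whole regions outside genes and 3403 bp for regions at or above the median width, by construction. The median distance was 15.4 kb, 18.3 kb beyond 2.5 kb from gene ends, 17.9 kb for whole regions and 7.62 kb with non-coding genes counted. The share with a neighbour was 71.2%, 77.7% for the wider regions, 48.3% with neighbours within 5 kb and 57.5% with neighbours of 3 or more intervals alone. The share of genes with a region was 20.2%, 17.1% beyond 2.5 kb, 17.6% for whole regions, 15.9% with non-coding genes counted, 11.3% for wider regions, 6.67% with a 10 kb window and 30.9% with a 100 kb window. The list shares, with windows of 10 and 100 kb, were 36.4% and 84.1% for the primary LPS response, 16.1% and 58.1% for the secondary response, 23.3% and 53.3% for lineage factors, 23.8% and 54.8% for surface genes, 33.3% and 77.8% for negative regulators, 9.52% and 52.4% for the dehydrogenase list, 9.09% and 48.5% for Mediator, 10.3% and 44.8% for ribosomal proteins, 4.17% and 16.7% for neuronal markers, 5% and 10% for hepatocyte markers, 15% and 55% for T cell markers, 11.1% and 33.3% for B cell markers and 15% and 25% for muscle markers. Windows and limits change these values by construction; for the other settings the cause was not tested. No paired analysis was possible because the list names no library, and for the same reason no library could be left out. The planned motif search in the regions, with its other window lengths, was not run because the sequence of the regions was not used here.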
